A study of Mus musculus with 24 samples.

Results

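The genes of the major histocompatibility complex (MHC) class I and class II antigen presentation systems were followed in the hippocampus (HIP) and entorhinal cortex (EC) of Ts65Dn mice and their wild-type (wt) littermates. The 10 genes were H2-K1, H2-D1, H2-Q4, H2-T23, H2-Aa, H2-Ab1, H2-Eb1, Cd74, B2m and Tap1, found by matching the Ensembl identifiers of a table of raw counts on 55385 genes to the GRCm38 annotation. Each of the 10 symbols matched 1 identifier, and all 10 genes passed the filter on low counts in both regions.

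Ts65Dn mice carry a small extra chromosome that holds the distal part of Mmu16, which is homologous to human chromosome 21, and a centromeric part of Mmu17 that is not. They were male and 5 to 6 months old, from a subline obtained from The Jackson Laboratory and kept on an F1 B6C3B background, a mixture of C57BL/6J and of the C3B line (C3H/HeN made congenic for the BALB/c allele of Pde6b). The controls were male littermates of the same age and background without the extra chromosome, so both genotypes shared the mixed background. RNA was sequenced from 6 mice of each genotype and from both regions of each mouse, which gave 24 libraries in 4 groups of 6. These are bulk samples, in which fewer cells of a type and less RNA per cell cannot be told apart.

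MHC class I molecules sit on most nucleated cells and show peptides made inside the cell to CD8+ T cells. Each consists of a polymorphic heavy chain, held by the light chain beta-2 microglobulin, and of a peptide that the TAP transporter carries into the endoplasmic reticulum. MHC class II molecules are pairs of an alpha and a beta chain that show peptides from taken-up material to CD4+ T cells, and the invariant chain, encoded by Cd74, guides them to the compartment where they are loaded. In the brain, class II genes are known as products of macrophages at the borders and of activated microglia, while class I genes are also made by neurons and endothelial cells.

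Of the 10 genes, 8 lie in the H2 complex of Mmu17, between 33996017 (the start of H2-K1) and 36032855 (the end of H2-T23) on chromosome 17 of GRCm38, beyond the centromeric segment that is triplicated in Ts65Dn. B2m lies at 122147686 to 122153083 on chromosome 2 and Cd74 on a chromosome other than Mmu16 and Mmu17, so none of the 10 genes has an extra copy. The H2-K1, H2-Aa and H2-T23 genes are on the minus strand and the other genes on the plus strand. Among the heavy chain genes, H2-D1 spans 35262730 to 35267499 and H2-Q4 spans 35379617 to 35385290.

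Promoter sequences were held for 8 of the 10 genes in a table of RefSeq promoters of GRCm38.p6, which gives 250 bases before and 50 bases after the annotated start of transcription. H2-Ab1 and Cd74 had no entry. The promoters of the 3 heavy chain genes discussed first and of B2m are shown because the classical class I promoter is known to hold an interferon-responsive element upstream of a Y box. Capitals mark matches on either strand to the core of the interferon regulatory factor element, AANNGAAA, and to the Y box, ATTGG, which do not overlap each other here. H2-K1 is read on the minus strand of chr17:34000298-34000597 (the first of 2 entries in the table), H2-D1 on the plus strand of chr17:35262844-35263143, H2-Q4 on the plus strand of chr17:35379367-35379666, and B2m on the plus strand of chr2:122147437-122147736.
H2-K1: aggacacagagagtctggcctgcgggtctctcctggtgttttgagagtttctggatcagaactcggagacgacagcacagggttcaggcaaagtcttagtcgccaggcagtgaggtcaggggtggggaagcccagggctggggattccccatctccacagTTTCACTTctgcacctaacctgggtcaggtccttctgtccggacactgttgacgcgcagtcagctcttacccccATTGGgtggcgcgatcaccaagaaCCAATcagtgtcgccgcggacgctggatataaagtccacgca
H2-D1: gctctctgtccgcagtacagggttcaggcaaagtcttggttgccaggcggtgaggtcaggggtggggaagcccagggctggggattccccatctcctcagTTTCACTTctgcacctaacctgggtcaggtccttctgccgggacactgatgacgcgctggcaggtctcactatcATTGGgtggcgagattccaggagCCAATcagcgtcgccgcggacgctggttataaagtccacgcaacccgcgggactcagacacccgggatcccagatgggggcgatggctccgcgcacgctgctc
H2-Q4: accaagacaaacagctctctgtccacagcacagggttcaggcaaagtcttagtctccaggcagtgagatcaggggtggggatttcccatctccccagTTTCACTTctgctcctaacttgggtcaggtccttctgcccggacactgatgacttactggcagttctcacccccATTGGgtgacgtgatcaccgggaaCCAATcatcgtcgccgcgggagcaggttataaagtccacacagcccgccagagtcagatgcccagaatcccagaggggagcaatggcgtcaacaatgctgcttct
B2m: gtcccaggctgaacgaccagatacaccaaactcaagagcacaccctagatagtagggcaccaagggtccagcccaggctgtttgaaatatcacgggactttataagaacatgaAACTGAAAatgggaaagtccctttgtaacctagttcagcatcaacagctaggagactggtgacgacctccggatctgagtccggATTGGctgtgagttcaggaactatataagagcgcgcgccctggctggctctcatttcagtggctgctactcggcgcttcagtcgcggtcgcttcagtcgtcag

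The promoters of H2-K1, H2-D1 and H2-Q4 held the 2 motifs in the same layout, with 74 bases between the start of the interferon regulatory factor core and the start of the first Y box in each of them. In B2m that distance was 84 bases. AANNGAAA was found in 6 of the 8 promoters, all except those of H2-Eb1 and Tap1, against 24.2% of 27025 promoters in the table. ATTGG was found in 8 of the 8, against 37.9% of the promoters, and TGACG, the core of the cyclic AMP response element, in 6 of the 8, against 21.0%. The promoters of H2-K1, H2-D1 and H2-Q4 are alike over long stretches, so these counts over 8 promoters are not counts of independent sequences. Such a match is a description of the letters and not a measured binding site.

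**Figure D1:**
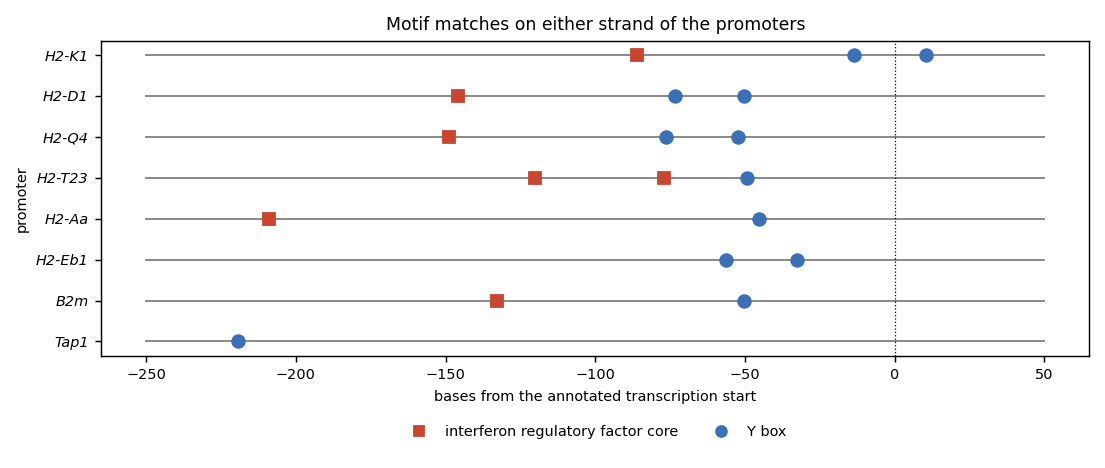
Position of each match to the interferon regulatory factor core (squares) and to the Y box (circles) in the 8 promoters, in bases from the annotated transcription start (dotted line). In H2-K1, H2-D1 and H2-Q4 the square lies 74 bases before the first circle, nearer to the start in H2-K1, and Tap1 and H2-Eb1 have no square.

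The heavy chain genes resemble each other and other H2 genes, which limits how reads of 50 bases can be placed. Of the 50-base words in the annotated transcripts of H2-Q4, 36.4% also occurred in transcripts of other genes, mainly Gm11131, H2-Q6 and Gm43321. The share was 14.5% for H2-T23, 12.8% for H2-D1 and 9.63% for H2-K1. It was 3.33% for Tap1, 0.514% for H2-Aa and 0 for H2-Ab1, H2-Eb1, Cd74 and B2m. The counts of the 4 heavy chain genes are therefore uncertain to the extent that reads of a near-identical copy, or of another H2 allele, were split or lost.

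Library totals ranged from 23128589 to 40476492 counts on genes. The library labelled Ts65Dn replicate 3 stood apart, because the 4 triplicated genes of Mmu16 checked (Ifnar1, Ifnar2, Ifngr2 and Il10rb) were near the wt level in both regions. Ifngr2, a triplicated interferon gamma receptor gene, had 50.1 CPM (counts scaled to library size, here by the TMM method) in its HIP, against 50.8 to 57.2 in the 6 wt mice and 80.9 to 102 in the other 5 Ts65Dn mice. Ifnar2 in its HIP, at 15.5 CPM, lay above the wt range of 12.1 to 14.5 CPM and below the other Ts65Dn mice (18.9 to 22.8 CPM). The label was kept, and for part of the results the values without this mouse are given as well. As for tissue identity, the 4 HIP markers (Prox1, C1ql2, Spink8 and Fibcd1) summed to between 296.9 and 442 CPM in HIP libraries and between 23.5 and 33.2 CPM in EC libraries, while 3 of 4 cortical markers were higher in the EC by edgeR. The 5 choroid plexus markers summed to between 55.2 and 5172 CPM over the HIP libraries and to between 8.66 and 51.0 CPM over the EC libraries.

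On the scale of CPM per kilobase of exon, B2m was the highest of the 10 genes in each of the 4 groups, with medians between 84.1 and 118.9, and its lowest mouse lay above the highest mouse of every other member. H2-D1 and H2-K1 followed, with medians from 5.00 to 9.89, and their ranges over mice overlapped in every group. Cd74 came next with medians from 1.98 to 4.88, then H2-T23 from 1.43 to 2.74, H2-Q4 from 0.814 to 1.61 and H2-Eb1 from 0.736 to 1.58. Tap1, H2-Aa and H2-Ab1 were lowest, with medians from 0.348 to 0.752 and ranges that overlapped within each group. H2-T23 and H2-Q4 did not overlap in the wt HIP or the wt EC, but they did in both Ts65Dn groups.

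**Figure D2:**
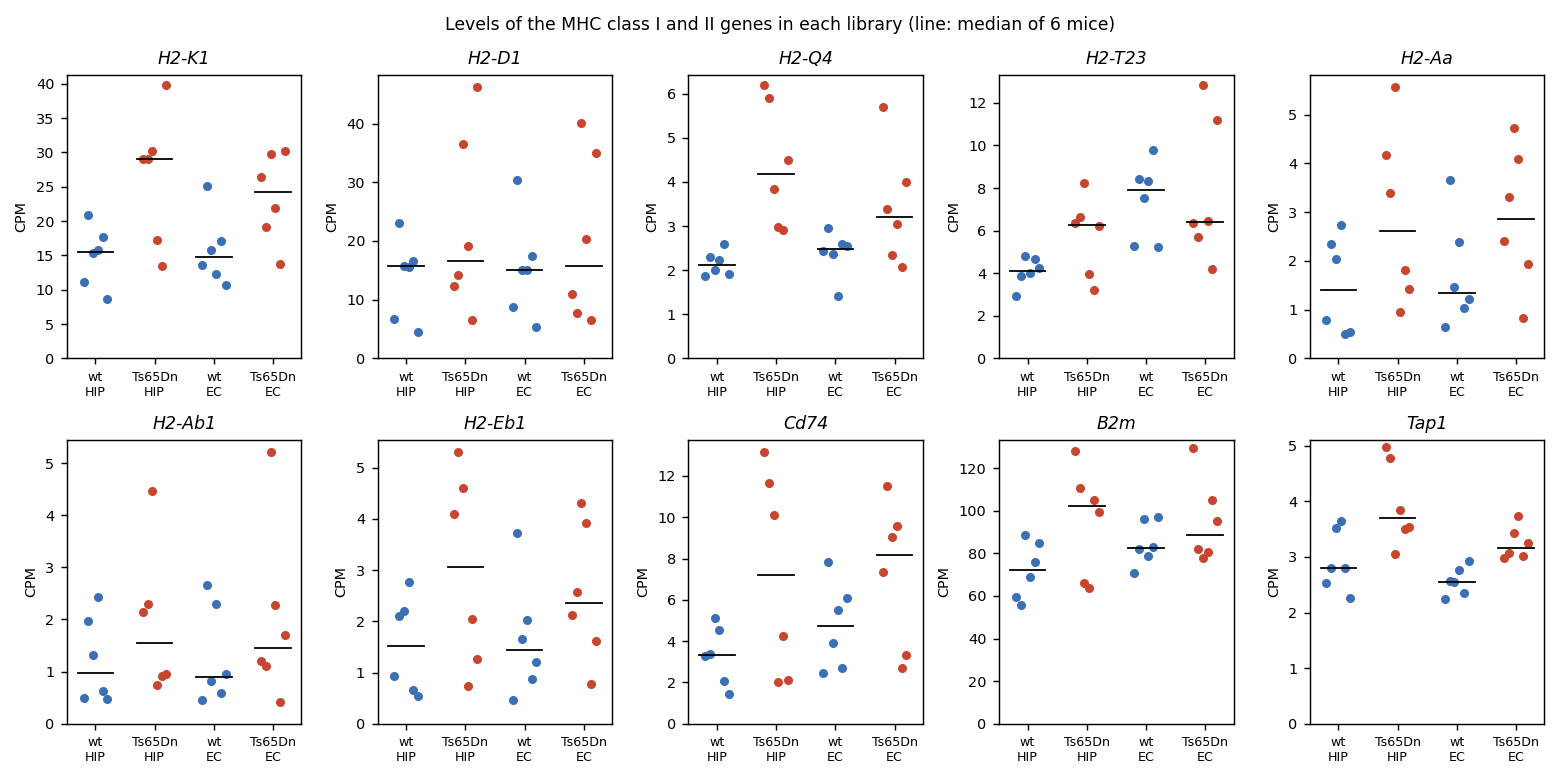
CPM of each of the 10 genes (vertical axes, each from 0) in the 6 mice of each group, blue for wt and red for Ts65Dn, with a line at the median. In the HIP, the 6 Ts65Dn points of H2-Q4, from 2.91 to 6.20 CPM, lie above the 6 wt points, from 1.87 to 2.59 CPM.

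The first comparison asked whether these genes, which are not triplicated, differed between Ts65Dn and wt mice in the HIP. H2-Q4, a non-classical class I heavy chain gene, was higher in the Ts65Dn HIP and was the one member called. In wt mice it had 1.87 CPM in the lowest, 2.11 in the median and 2.59 in the highest, and in Ts65Dn mice 2.91, 4.17 and 6.20. Each of the 6 Ts65Dn mice thus lay above each of the 6 wt mice, with the 2 highest being Ts65Dn replicates 1 and 2. The log2 fold change was 1.02 (SE, the standard error, 0.19), a 2.03-fold difference with a 95% interval of 1.56 to 2.64, and the adjusted p was 0.0269 by edgeR's quasi-likelihood test over 17355 genes. Among all genes tested in the HIP, 1.04% were called (181 genes, with 0.542% higher in Ts65Dn), and 0.68% had every Ts65Dn mouse above every wt mouse. Without Ts65Dn replicate 3 the log2 fold change was 1.06 (adjusted p = 0.0216 by edgeR). In the 12 fits that each left out 1 mouse, H2-Q4 was called in 6, with adjusted p from 0.0187 to 0.0682 by edgeR. The call was lost without wt replicate 1 (0.0540), 2 (0.0554), 3 (0.0682) or 6 (0.0652) and without Ts65Dn replicate 1 (0.0544) or 6 (0.0646).

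The classical heavy chain gene H2-K1 had a median of 15.6 CPM (8.64 to 20.9) in the wt HIP and of 29.1 CPM (13.5 to 39.8) in the Ts65Dn HIP. The groups overlapped, with 4 of 6 Ts65Dn mice above every wt mouse and Ts65Dn replicates 4 and 5 within the wt range. Its log2 fold change of 0.82 (SE 0.25, unadjusted p = 0.00584) did not pass after adjustment (adjusted p = 0.144 by edgeR). H2-D1, the other classical heavy chain gene, ranged widely in both genotypes, from 4.56 to 22.99 CPM in wt (median 15.7) and from 6.48 to 46.3 CPM in Ts65Dn (median 16.7). The medians were close, and only Ts65Dn replicates 3 and 6 lay above every wt mouse. H2-T23, which encodes Qa-1, the mouse molecule that presents leader peptides of other class I chains, had medians of 4.12 CPM (2.95 to 4.79) in wt and 6.28 CPM (3.21 to 8.24) in Ts65Dn. Its adjusted p was 0.277 and that of H2-D1 was 0.512 by edgeR, so neither gene was called.

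B2m, the gene of the class I light chain, had a median of 72.3 CPM (55.6 to 88.6) in the wt HIP and of 102 CPM (63.8 to 128) in the Ts65Dn HIP. Of the Ts65Dn mice, 4 lay above every wt mouse and replicates 3 and 4 lay within the wt range. The log2 fold change was 0.40 (SE 0.17, adjusted p = 0.295 by edgeR), with a 95% interval of the fold from 1.05 to 1.66. Tap1, a subunit of the peptide transporter, had medians of 2.80 CPM (2.26 to 3.65) in wt and 3.69 CPM (3.05 to 4.97) in Ts65Dn, with Ts65Dn minus wt at 0.43 on the log2 scale (SE 0.15, adjusted p = 0.205 by edgeR). Its groups overlapped, with 3 of 6 Ts65Dn mice above every wt mouse.

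Among the class II genes, Cd74 (60803848 to 60812652 on chromosome 18) had the highest log2 fold change of the 10 members in the HIP, 1.14, but also a large standard error of 0.47 (adjusted p = 0.281 by edgeR). Its level was 3.33 CPM at the wt median (1.45 to 5.11) and 7.18 CPM at the Ts65Dn median (2.03 to 13.2). The Ts65Dn mice were spread out, with replicates 1, 2 and 3 at 13.2, 11.6 and 10.11 CPM, above every wt mouse, and replicates 4, 5 and 6 at 2.03, 4.26 and 2.12 CPM, within the wt range. H2-Aa, the alpha chain of the I-A molecule, had medians of 1.41 CPM (0.506 to 2.74) in wt and 2.60 CPM (0.951 to 5.57) in Ts65Dn. H2-Ab1, its beta chain, had medians of 0.971 CPM (0.472 to 2.43) and 1.55 CPM (0.735 to 4.46), and H2-Eb1, the beta chain of the I-E molecule, 1.52 CPM (0.540 to 2.77) and 3.07 CPM (0.735 to 5.30). The genotypes overlapped for these 3 genes, and the adjusted p-values were 0.401 for H2-Aa, 0.595 for H2-Ab1 and 0.387 for H2-Eb1 by edgeR.

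As a list, the 10 members had values of Ts65Dn minus wt from 0.40 to 1.14 on the log2 scale in the HIP (median 0.76), while the median of all genes tested was 0.00. All 10 were above 0, against 51.3% of all genes tested, and 6 had an unadjusted p under 0.05 by edgeR, against 14.8%. Leaving out Ts65Dn replicate 3 kept all 10 above 0, with a median of 0.58 and 4 genes at an unadjusted p under 0.05 by edgeR. It lowered H2-Ab1 (0.65 to 0.21), H2-Aa (0.95 to 0.65), H2-D1 (0.71 to 0.51), H2-Eb1 (0.97 to 0.81), H2-T23 (0.50 to 0.37), Cd74 (1.14 to 1.01) and H2-K1 (0.82 to 0.78). It raised B2m (0.40 to 0.49), Tap1 (0.43 to 0.49) and H2-Q4 (1.02 to 1.06). Several of the members vary together across mice or share promoter motifs, and those of the H2 complex are neighbours on Mmu17. The 10 are therefore not independent counts of a difference.

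Border macrophages, which carry class II molecules, were followed through 6 markers (Mrc1, Cd163, Lyve1, F13a1, Pf4 and Ms4a7), none of them at 0 in any group. In the HIP the markers summed to 5.86 to 8.31 CPM in wt and to 4.59 to 16.8 CPM in Ts65Dn, with Ts65Dn replicates 1, 2 and 3 at 9.91, 16.8 and 12.0 CPM and replicates 4, 5 and 6 at 5.01, 4.59 and 6.71 CPM. The sums of the first 3 mice, like their Cd74 levels, lay above every wt mouse. The 5 markers of meningeal fibroblasts (Dcn, Lum, Col1a1, Col1a2 and Slc6a13) were also highest in these mice, with 155 CPM, 152 CPM and 87.7 CPM in Ts65Dn replicates 1, 2 and 3, against 35.2 to 82.6 CPM in wt mice and 37.6 to 63.2 CPM in Ts65Dn replicates 4, 5 and 6. None of these 5 was called between genotypes in the HIP by edgeR, and 1 had an unadjusted p under 0.05. Of the 6 border macrophage markers, 4 passed the filter on low counts in the HIP. None of these 4 was called between genotypes by edgeR, and none had an unadjusted p under 0.05. The 11 microglial markers summed to 447 to 513 CPM in wt and 405 to 487 CPM in Ts65Dn, and 1 of them, P2ry12, was called, as lower in Ts65Dn (log2 fold change -0.27, SE 0.06, adjusted p = 0.0422 by edgeR). The 5 T cell markers summed to 0.270 to 0.541 CPM in the wt HIP and to 0.242 to 1.30 CPM in the Ts65Dn HIP. Ts65Dn replicates 1 (1.30 CPM), 2 (0.943 CPM) and 5 (0.546 CPM) lay above every wt mouse, replicate 5 by little. No T cell marker passed the filter on low counts in the HIP, so none was tested between genotypes there. The 8 markers of dendritic and B cells summed to at most 8.34 CPM in any HIP library. The part of these cells in the levels of the members was not tested.

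**Figure D3:**
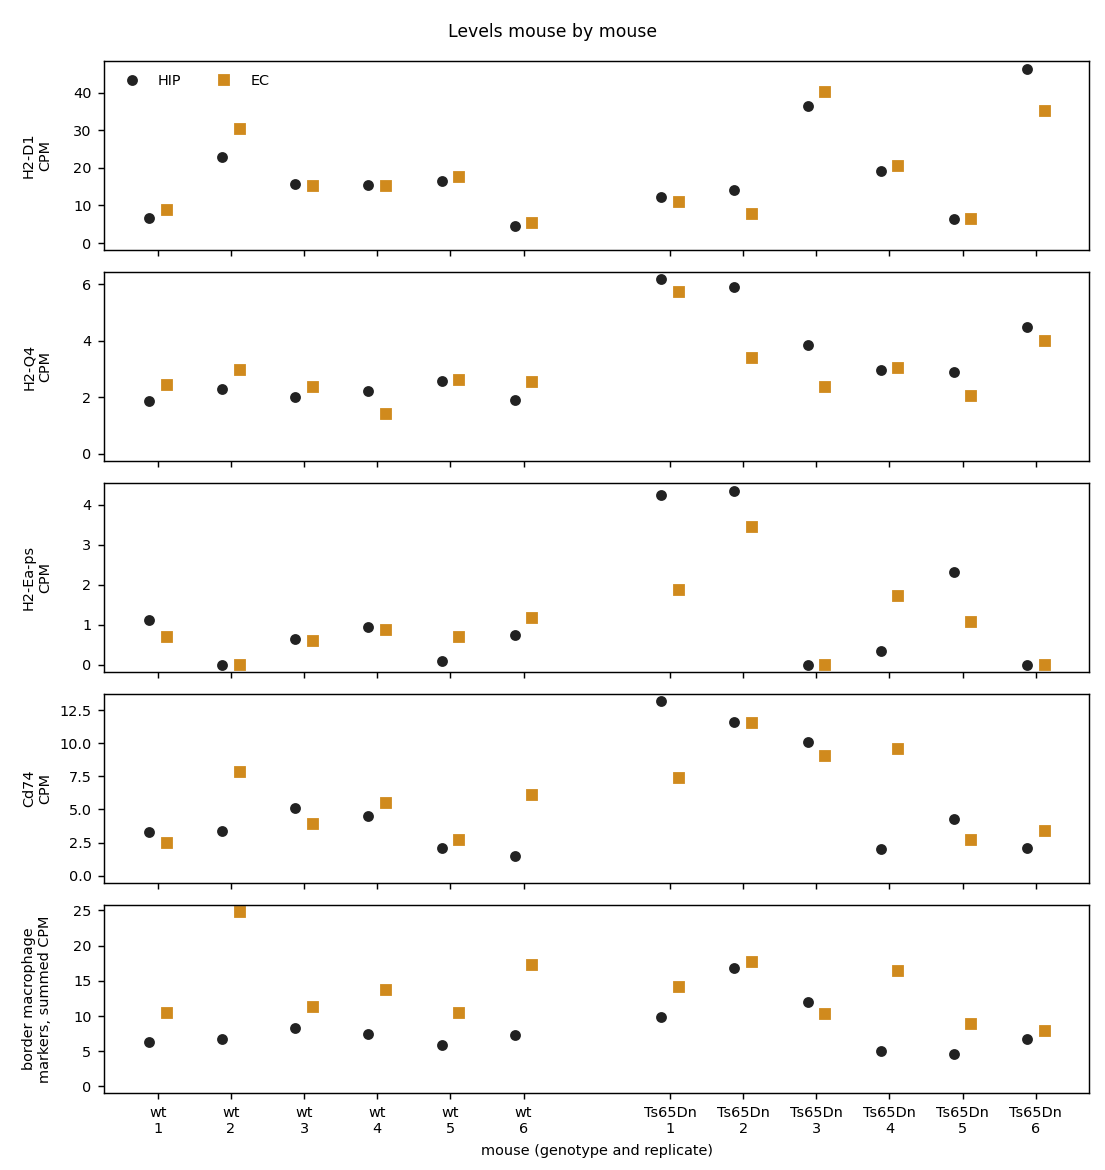
Levels in each of the 12 mice (horizontal axis) in the HIP (black circles) and EC (orange squares), in CPM, for H2-D1, H2-Q4, H2-Ea-ps, Cd74 and the summed markers of border macrophages. H2-D1 is highest in Ts65Dn replicates 6 and 3 and wt replicate 2, where H2-Ea-ps is at 0 in both regions, and the HIP values of Cd74 and of the border macrophage markers are highest in Ts65Dn replicates 1, 2 and 3.

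In the EC, the same question gave 0 members called by edgeR, with 3 at an unadjusted p under 0.05 (H2-K1, H2-Q4 and Tap1, against 19.0% of all genes tested), and 0 called by DESeq2. Among all 17049 genes tested in the EC, 2.5% were called. Tap1 was the member whose genotypes separated in the EC, with 2.24, 2.56 and 2.92 CPM in the lowest, median and highest wt mouse and 2.98, 3.16 and 3.73 CPM in Ts65Dn. The fitted log2 difference was 0.33 (SE 0.11, adjusted p = 0.108 by edgeR), and 1.27% of all genes tested had every Ts65Dn mouse above every wt mouse. H2-K1 had medians of 14.7 CPM (10.7 to 25.2) in wt and 24.2 CPM (13.8 to 30.2) in Ts65Dn, with Ts65Dn minus wt at 0.57 on the log2 scale (SE 0.21, adjusted p = 0.157 by edgeR). The highest wt mouse was replicate 2, and without it H2-K1 passed, with a log2 fold change of 0.75 (adjusted p = 0.0456 by edgeR).

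H2-Q4 overlapped between genotypes in the EC, with 1.42, 2.49 and 2.96 CPM in the lowest, median and highest wt mouse and 2.06, 3.21 and 5.71 CPM in Ts65Dn. Here 4 of 6 Ts65Dn mice lay above every wt mouse, and the log2 fold change was 0.52 (SE 0.23, adjusted p = 0.239 by edgeR). H2-T23 had medians of 7.93 CPM (5.22 to 9.78) in wt and 6.40 CPM (4.20 to 12.8) in Ts65Dn, and its log2 fold change was 0.06, with -0.14 without Ts65Dn replicate 3, neither of them called. H2-D1 again had similar medians of 15.1 CPM (5.39 to 30.4) and 15.7 CPM (6.51 to 40.2). B2m, with medians of 82.6 CPM (70.8 to 97.2) in wt and 88.6 CPM (78.0 to 129.6) in Ts65Dn, had an adjusted p of 0.510 by edgeR and a 95% interval of the fold from 0.950 to 1.31.

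The class II genes of the EC were again spread out, with standard errors of the genotype difference from 0.35 (Cd74) to 0.53 (H2-Ab1). That of the class I gene H2-D1 lay within this range, at 0.46. Cd74 had medians of 4.71 CPM (2.43 to 7.85) in wt and 8.19 CPM (2.72 to 11.5) in Ts65Dn, where replicates 2, 3 and 4 lay above every wt mouse and replicates 1, 5 and 6 lay within the wt range. H2-Aa, H2-Ab1 and H2-Eb1 had wt medians of 1.33, 0.893 and 1.43 CPM and Ts65Dn medians of 2.86, 1.45 and 2.35 CPM, with overlapping ranges. The 4 genes had log2 fold changes between 0.59 and 0.72 and adjusted p-values between 0.368 and 0.593 by edgeR. Without Ts65Dn replicate 3, these log2 fold changes were 0.05 for H2-Ab1, 0.40 for H2-Eb1, 0.53 for H2-Aa and 0.54 for Cd74, and that of H2-D1 went from 0.37 to 0.06. Over the 10 members the median log2 fold change in the EC was 0.54, against 0.00 over all genes tested, and all 10 were above 0, against 51.3%. Without Ts65Dn replicate 3 the median was 0.36 and 9 were above 0. The 6 border macrophage markers summed to 10.4 to 24.8 CPM in the wt EC and 7.89 to 17.6 CPM in the Ts65Dn EC. Ts65Dn replicates 2, 3 and 4, with Cd74 above every wt mouse, had sums of 17.6, 10.3 and 16.3 CPM. Each of these sums lay below that of the highest wt mouse, and that of replicate 3 also below the lowest. The 5 markers of meningeal fibroblasts summed to 41.8 to 125.7 CPM in the wt EC and 39.0 to 94.8 CPM in the Ts65Dn EC. The microglial marker P2ry12 was called lower in the Ts65Dn EC (log2 fold change -0.45, SE 0.09, adjusted p = 0.0226 by edgeR). The part of these markers in the levels of the members was not tested.

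**Figure D4:**
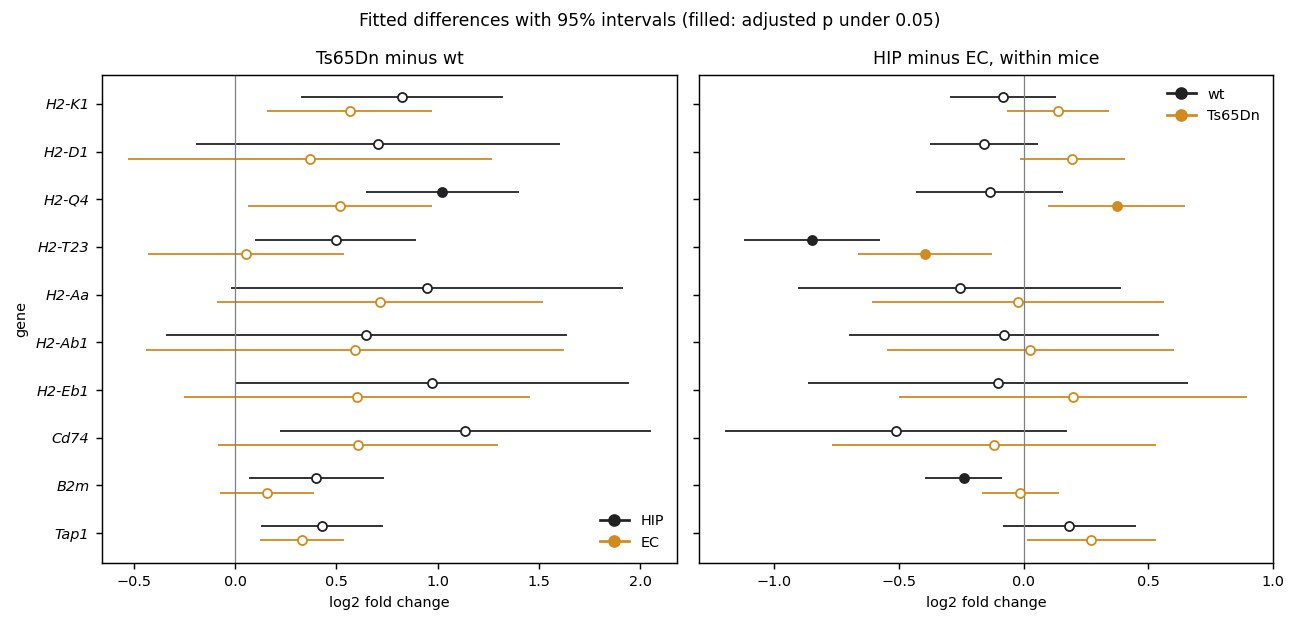
Log2 fold changes (horizontal axes) of the 10 genes with 95% intervals, on the left for Ts65Dn against wt (black HIP, orange EC) and on the right for HIP against EC within mice (black wt, orange Ts65Dn). Filled points passed an adjusted p under 0.05, which on the left holds for H2-Q4 in the HIP at 1.02, and on the right for H2-T23 and B2m in wt and for H2-Q4 and H2-T23 in Ts65Dn.

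The second comparison set the HIP against the EC of the same mouse, in a fit with a term for each mouse. In wt mice 2 members were called, H2-T23 and B2m, both lower in the HIP. The region difference was common in these data, with 58.6% of 18109 genes called in wt (28.3% lower in the HIP), so 2 of 10 is below the share of all genes. H2-T23 was lower in the HIP in 6 of 6 wt mice, with differences of log2 CPM from -1.11 to -0.29, and had a fitted log2 fold change of -0.85 (SE 0.14, adjusted p = 7.89e-05 by edgeR). B2m was lower in the HIP in 6 of 6 wt mice as well, by a small fitted log2 fold change of -0.24 (SE 0.08, adjusted p = 0.0161 by edgeR). Without wt replicate 2, which had the largest difference between its regions, B2m was at -0.18 (adjusted p = 0.0757 by edgeR).

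In Ts65Dn mice, 56.5% of all genes were called between the regions (29.5% higher and 27.0% lower in the HIP), and 2 of the 10 members were, H2-Q4 and H2-T23. H2-Q4 was higher in the HIP in 5 of 6 mice, with a log2 fold change of 0.37 (SE 0.14, adjusted p = 0.0328 by edgeR), and H2-T23 was lower in the HIP in 5 of 6 mice, with -0.40 (SE 0.14, adjusted p = 0.0218 by edgeR). Neither call held without Ts65Dn replicate 3, with adjusted p of 0.0981 for H2-Q4 and 0.0763 for H2-T23 by edgeR, while Tap1 then passed as higher in the HIP (log2 fold change 0.36, adjusted p = 0.0375 by edgeR). H2-Q4 also lost its call without replicate 2 (0.131) or 5 (0.0750), and H2-T23 without replicate 4 (0.0607) or 6 (0.0925). None of the 3 class II chain genes or Cd74 was called between regions in either genotype, with fitted log2 values of HIP minus EC from -0.51 to -0.08 in wt and from -0.12 to 0.20 in Ts65Dn, and the difference of log2 CPM of Cd74 ranged from -2.20 to 0.83 over the 6 Ts65Dn mice. Of the cell type markers, 9 of 11 microglial markers and 5 of 6 border macrophage markers were called lower in the wt HIP, and 7 of 11 and 3 of 6 in the Ts65Dn HIP, with no marker of either list called higher; the part of these markers in the region differences was not tested.

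Whether the genotype difference of a member was itself different between the regions was tested as an interaction. No member was called by edgeR or by DESeq2, with 0.0% of 18109 genes called by edgeR. All 10 interaction terms were above 0, against 49.9% of all genes, meaning a larger log2 difference in the HIP, and 3 had an unadjusted p under 0.05 against 4.1% of all genes. These were H2-Q4 with 0.51 (unadjusted p = 0.0252 by edgeR), H2-T23 with 0.45 (0.0336) and H2-D1 with 0.36 (0.0363), each with an adjusted p of 0.9998 by edgeR. Without Ts65Dn replicate 3 again no member was called. The unadjusted p by edgeR was then under 0.05 for H2-D1 (0.0144), H2-T23 (0.0270) and B2m (0.0310), and 0.0523 for H2-Q4. The call of H2-Q4 in the HIP and its absence in the EC were therefore not shown to differ.

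The spread of H2-D1 within each genotype was shared by both regions of a mouse. Between the 2 regions, its log2 CPM had a Pearson r of 0.936 and a Spearman rho of 0.965 over 12 mice (two-sided permutation tests with 100000 resamples, p = 2e-05 for both, the smallest these resamples can give, and 0.0002 for both after adjustment over the 10 members). Within genotypes, r was 0.973 in wt (exact permutation p = 0.00556) and 0.941 in Ts65Dn (exact permutation p = 0.0111), with 6 mice each. Without the 2 mice farthest from the median HIP level, r was 0.909, and without Ts65Dn replicate 3 it was 0.923. H2-K1 had r of 0.889 and rho of 0.902 over the 12 mice (adjusted permutation p = 0.0014 and 0.0011), with r of 0.835 within wt, 0.821 within Ts65Dn and 0.812 without its 2 farthest mice.

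B2m had r of 0.802 and rho of 0.706 (adjusted permutation p = 0.00553 and 0.0427), with r of 0.817 within wt and 0.764 within Ts65Dn, and r of 0.745 without its 2 farthest mice (adjusted permutation p = 0.0609). H2-Q4 had r of 0.699 and rho of 0.594 (adjusted permutation p = 0.0307 and 0.0782), with r of 0.01 within wt and 0.776 within Ts65Dn. Without the 2 mice farthest from the median, r of H2-Q4 was 0.449. Cd74 showed no relation that passed, with r of 0.430 and rho of 0.315 (adjusted permutation p = 0.159 and 0.315). Over the remaining 5 members r lay between 0.443 and 0.682, and rho between 0.448 and 0.650, with H2-Ab1 passing by r (adjusted permutation p = 0.0328) but not by rho (0.0538). Without Ts65Dn replicate 3, H2-Ab1 no longer passed by r (0.518, adjusted permutation p = 0.150), B2m no longer passed by rho (0.682, adjusted permutation p = 0.0609), and H2-Q4 passed by both (adjusted permutation p = 0.0202 and 0.0423). With 6 mice of a genotype no member passed after adjustment over the 10, the lowest adjusted exact permutation p being 0.0556 for r of H2-D1 in wt.

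**Figure D5:**
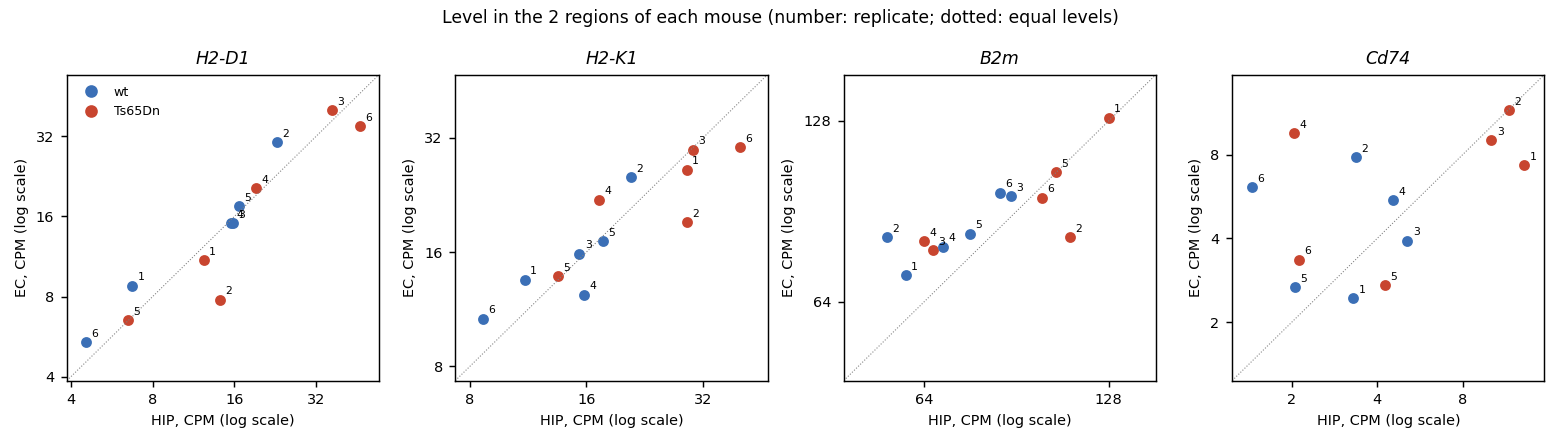
EC level against HIP level of H2-D1, H2-K1, B2m and Cd74 in each of the 12 mice, in CPM on log scales, with the replicate number beside each point and a dotted line at equal levels. The points of H2-D1 follow the line (r = 0.936) and those of Cd74 do not (r = 0.430).

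The order of the mice differed between some class I genes. In the HIP, H2-Q4 was highest in Ts65Dn replicates 1 (6.20 CPM) and 2 (5.89 CPM). H2-K1, like H2-D1, was highest in Ts65Dn replicates 6 (39.8 CPM) and 3 (30.1 CPM). The 3 highest HIP levels of H2-D1 were 46.3 CPM in Ts65Dn replicate 6, 36.5 in Ts65Dn replicate 3 and 22.99 in wt replicate 2, and the 3 highest EC levels, at 35.0, 40.2 and 30.4 CPM, were those of the same mice. H2-Ea-ps, annotated as a polymorphic pseudogene at 34341959 to 34344645 on chromosome 17, is the alpha chain gene of I-E, which C57BL/6 mice with their H2b haplotype do not express and C3H mice with H2k do. It had 0 counts in both regions of wt replicate 2, Ts65Dn replicate 3 and Ts65Dn replicate 6. A count of 0 in these libraries allows a level of up to 0.0741 to 0.112 CPM (3 counts of each total, counting error only).

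In the other 9 mice H2-Ea-ps had 3 to 30 counts in the wt HIP, 8 to 147 in the Ts65Dn HIP, 18 to 28 in the wt EC and 26 to 103 in the Ts65Dn EC. It was not called between genotypes in the HIP (log2 fold change 1.72, SE 1.001, adjusted p = 0.462) or in the EC (1.03, SE 0.80, adjusted p = 0.533 by edgeR). The labels give no H2 haplotype, and the part of differing H2 alleles in the levels of the H2 genes, including how well their reads align to the reference, was not tested. B2m and Cd74, which lie outside the H2 complex, do not carry that uncertainty about H2 alleles. Both genes share the mixed background, however, and the part of differing alleles at or near them was not tested.

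The genes whose levels varied most like those of 3 members were taken by the smaller of 2 Pearson correlations of log2 CPM, over the 12 HIP and over the 12 EC libraries, among 16592 genes. For H2-K1 these included Ddr1 (0.867), Abtb2 (0.795), Gsn (0.777) and Psmb8 (0.763), of which Ddr1, a collagen receptor, and Psmb8, an immunoproteasome subunit, lie within the H2 segment of chromosome 17. For B2m they included 2900097C17Rik (0.774), Tm9sf4 (0.731), Spint1 (0.727) and Polr1b (0.711). These 4 lie on chromosome 2, as B2m does, between 119237362 (Spint1) and 156392979 (2900097C17Rik), whereas 7.73% of the genes compared are on that chromosome. For Cd74 they were Serping1 (0.865), a complement inhibitor, Slc12a7 (0.858), Vim (0.840), the intermediate filament vimentin, Gpr182 (0.837) and Myof (0.831). The correlations do not separate genotype, depth, dissection and alleles of the mixed background, which can vary among the libraries of a region. These values are therefore descriptions.

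Among the members themselves, Cd74 varied most like the class II chains, with correlations of 0.940 (HIP) and 0.874 (EC) for H2-Eb1, and 0.884 and 0.887 for H2-Aa. Between Cd74 and H2-D1 they were 0.150 and 0.175. H2-K1 and H2-D1 had 0.819 in the HIP and 0.760 in the EC. B2m, whose product pairs with the heavy chains, had 0.654 and 0.532 with H2-Q4, 0.321 and 0.118 with H2-K1, 0.402 and -0.26 with H2-T23, and -0.15 and -0.28 with H2-D1 (HIP and EC).

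Other genes of the antigen presentation pathway were counted from lists of 10 other class I genes, 4 other class II genes, 15 genes of peptide supply and loading and 13 regulators that could be tested in the HIP. Called between genotypes in the HIP, where 1.04% of all genes were, were 4 of these 42, all of them regulators and all higher in Ts65Dn, namely Ifnar1, Ifnar2, Ifngr2 and Il10rb. These receptor genes lie in the triplicated segment of Mmu16, and were higher by 0.51 to 0.66 (log2). In the EC, where 2.5% of all genes were called, 4 of 42 were, Ifnar1, Ifnar2, Ifngr2 and Nlrc5. Nlrc5, the transactivator of class I genes, rose from a wt median of 0.237 CPM (0.0998 to 0.376) to a Ts65Dn median of 0.565 CPM (0.325 to 0.956) in the EC, with Ts65Dn minus wt at 1.34 on the log2 scale (SE 0.33, adjusted p = 0.0451 by edgeR). Few reads lay behind this, as wt EC libraries held 3 to 9 counts and Ts65Dn EC libraries 9 to 35, and in the HIP it had a log2 fold change of 0.76 (adjusted p = 0.265 by edgeR).

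The immunoproteasome and transporter genes beside Tap1 were not called between genotypes. Psmb8, Psmb9 and Tap2 had log2 values of Ts65Dn minus wt of 0.36, 0.37 and 0.30 in the HIP and of 0.37, 0.38 and 0.20 in the EC, with adjusted p from 0.146 to 0.433 by edgeR. Psmb10, another immunoproteasome gene, had 0.05 in the HIP and -0.01 in the EC. Over the 15 genes of peptide supply and loading the median was 0.05 in each region, with 12 above 0 in the HIP and 8 in the EC. Over the H2 segment of chromosome 17, from 33000000 to 38000000, 1 of 144 genes tested was called in the HIP, which was H2-Q4, and 3 of 141 in the EC, Angptl4, Prrt1 and Skiv2l, all higher in Ts65Dn, both counts being below the shares over all genes (1.04% and 2.5%). Over the segment, the median log2 fold change was 0.06 (HIP) and 0.07 (EC), below the medians of the 10 members. Fold changes above 0 (log2) were nevertheless more common there, with 96 of 144 segment genes (HIP) and 98 of 141 (EC), against 51.3% of all genes for each region. An unadjusted p under 0.05 by edgeR was reached by 28 segment genes (HIP, against 14.8%) and by 26 (EC, against 19.0%). The segment includes the members on chromosome 17, so its values are not independent of theirs.

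Between the regions, 23 of 46 of these other genes were called in wt mice, 10 higher and 13 lower in the HIP, and 20 of 46 in Ts65Dn mice, 12 higher and 8 lower, both below the shares of all genes called (58.6% in wt and 56.5% in Ts65Dn). Of the 15 genes of peptide supply and loading, 8 were lower in the wt HIP and 1 was higher, and 7 were lower and 2 higher in the Ts65Dn HIP, beside 28.3% and 27.0% of all genes called lower. The lower genes included Tapbpl, a tapasin-related peptide editor, with -0.81 in wt and -0.83 in Ts65Dn, Psmb10 with -0.70 and -0.63, and the chaperone gene Calr with -0.29 and -0.23 (log2 fold changes), while Tap2 was higher with 0.26 and 0.36. The regulators called higher in the HIP in both genotypes included Nlrc5 (1.16 in wt and 0.56 in Ts65Dn) and Ciita, the transactivator of class II genes (0.61 and 0.53). Hfe, a class I-like regulator of iron uptake, was higher in the HIP by 0.87 in wt and 0.82 in Ts65Dn.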

How the data were processed

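RNA-seq libraries from 6 wt and 6 Ts65Dn mice, 1 per region, were analysed, with groups and replicate numbers taken from the labels. The authors aligned single-end reads of 50 bases to GRCm38 (Ensembl release 99) with Hisat2 and made the deposited raw counts with HTSeq-count; bcl2fastq 2.17.1.14 is named in the submitters' processing notes. The strand and multiple-alignment settings and the HTSeq version are not given in the sources used here. The methods name a total RNA kit and then polyA RNA, and the labels a stranded mRNA kit. The deposited tables of the authors' own comparisons (fold changes and p-values) were not used.

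Identifiers were matched to GENCODE vM21 (99.6% of genes). Totals of 23128589 to 40476492 counts set the counting precision. Genes kept by filterByExpr were tested with edgeR 4.0.16 (R 4.3.3; TMM, quasi-likelihood test, Benjamini-Hochberg adjusted p under 0.05), by genotype within each region, and by region and interaction over 24 libraries with a term for each mouse, since the titles give both regions of a mouse the same number. Intervals of folds are 1.96 standard errors. For relations between regions, 2 was added as prior count before the log2 of CPM, with permutation tests (scipy 1.17.1). Alternatives were DESeq2 1.42.0, its size factors within edgeR, no filter, at least 10 counts in every library, an adjusted p under 0.1, 1 fit over all groups, a replicate block, and leaving out each mouse. Methods were tested on simulated data.

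The members, gene lists and tests were chosen with earlier results of these data known. Named were the 10 members, listed antigen presentation genes that were called, H2-Ea-ps, and the 5 genes most alike in level to H2-K1, B2m and Cd74, of which 2 are not reported here. Psmb8, Psmb9, Tap2 and the called genes of the H2 segment were named after their values were seen. Promoters are those of RefSeq.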

Additional observations from a re-analysis of the deposited data

How the results depend on the processing

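The count of 1 member called in the HIP (H2-Q4) was the same under DESeq2 (adjusted p = 0.000162), DESeq2 size factors, both other filters, an adjusted p under 0.1 and 1 fit over all groups, and it was 0 to 1 over the 12 fits that each left out 1 mouse. With the replicate number as a block, 0 members were called in the HIP (H2-Q4 at 0.98, adjusted p = 0.122 by edgeR). For mice of the 2 genotypes with the same number, deviations from the group mean correlated by -0.198 to 0.153 (HIP) and -0.0812 to 0.166 (EC). Mice with different numbers were not compared, so these values cannot show whether mice with the same number share anything else. The block left the EC count at 0, and leaving out mice gave 0 to 1. Without the term for each mouse, which drops the pairing of a mouse's regions, 1 member was called by region in wt and 0 in Ts65Dn, and leaving out mice gave 1 to 2 in each. Under that setting H2-Aa, H2-Ab1 and B2m changed sign in Ts65Dn, to 0.0060, -0.0398 and 0.0074 (log2). Of the relations between regions, 3 members passed by rho over 12 mice and 0 within wt and 0 within Ts65Dn, where rho of Tap1 was -0.43. Cd74 was called lower in the wt HIP with no filter on low counts (-0.51, adjusted p = 0.0218 by edgeR). Over the fits that left out a mouse, log2 fold changes that changed sign ranged from -0.14 to 0.18 for H2-T23 between genotypes in the EC; from -0.23 to 0.0595 for H2-Ab1 and -0.25 to 0.11 for H2-Eb1 between regions in wt; from -0.21 to 0.32 for H2-Aa, -0.19 to 0.30 for H2-Ab1, -0.0091 to 0.60 for H2-Eb1, -0.35 to 0.22 for Cd74 and -0.10 to 0.0435 for B2m between regions in Ts65Dn; and from -0.12 to 0.40 for H2-Ab1 and -0.0146 to 0.18 for Tap1 in the interaction. The cause of these changes was not tested. Class II counts were low, down to 10 per library, which limits their precision.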
